A study of Arabidopsis thaliana with 12 samples.

Results

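The transcripts that changed in *Arabidopsis* seedlings without NRPE1 are described here from 6 RNA sequencing libraries, 3 of the mutant *nrpe1* and 3 of the wild type. NRPE1 is the largest subunit of RNA polymerase V (Pol V). Both genotypes were of the Columbia ecotype, and whole seedlings were collected after 10 days on MS agar. The *nrpe1* plants carried the allele *nrpe1-11*, a single mutant line, and libraries of *brat1* (allele *brat1-1*) and of the double mutant *brat1nrpe1* were made in the same way with 3 replicates each, which gives 12 libraries in all. The labels do not say whether replicates came from separate plantings, so p-values measure the spread between these libraries, part of which may be technical. The measurement is FPKM, fragments scaled to the exon length of the gene and to the mapped fragments of the library, for 34133 listed genes and isoforms. Of these, 22645 had a mean FPKM of at least 0.1 over the 12 libraries and were tested. A gene was counted as higher or lower when its Benjamini-Hochberg adjusted p from limma was under 0.05 and its difference on the log2(FPKM + 0.1) scale was larger than 1 in size. Libraries were paired by replicate number, and the fit took its spread from all 12 libraries, those of *brat1* and *brat1nrpe1* included. All log2 differences below use that scale, on which changes at low FPKM come out too small, and some are given with their standard error (SE).

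Pol V makes noncoding transcripts at silent loci and works in RNA-directed DNA methylation (RdDM). In this pathway small RNAs loaded on ARGONAUTE4 or its relatives pair with Pol V transcripts, and the methyltransferase DRM2 is brought to the DNA. RdDM acts mainly on short transposons and repeats, including those close to genes, and it is known for keeping genes such as *SDC* silent in leaves. The opposite activity comes from DNA glycosylases such as ROS1, which remove methylated cytosine. *ROS1* itself is known for a promoter element at which methylation goes with higher expression.

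*NRPE1* (AT2G40030, chr2:16714460-16723718 in TAIR10.1, plus strand) was measured at 5.01, 4.14 and 4.16 FPKM in replicates 1 to 3 of the wild type, against 1.42, 1.32 and 1.29 in *nrpe1*. The groups did not overlap, and the log2 difference was -1.65 (SE 0.106, adjusted p = 4.89e-05). The direction is that of the labels, and transcript of the gene was still listed in the mutant. Markers of leaves and of roots were present and those of flowers and seeds were at or near 0. The summed FPKM of 5 leaf and photosynthesis markers was between 24390 and 29080 in the wild type and between 25010 and 25310 in *nrpe1*, and that of 6 flower and seed markers was between 0.873 and 2.27, against 1.003 and 1.644. Replicate 1 stood apart from replicates 2 and 3 in both genotypes. The SD of log2 differences over 11453 genes averaging 10 FPKM or more was between 1.19 and 1.24 for replicate 1 against either of the others and 0.257 and 0.263 for replicate 2 against 3. From the steps of the lowest FPKM values, 1 read in a transcript of 1 kb was worth about 0.027 to 0.032 FPKM in replicate 1 and 0.062 to 0.081 in the others of these genotypes, so replicate 1 was sequenced more deeply. A listed 0 may stand for a value that was not estimated, and each library is then given separately.

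In *nrpe1*, 85 genes were higher than in the wild type (0.375% of those tested) and 32 were lower (0.141%). Gains were the larger changes, with a median log2 difference of 2.67 against -1.58 for the losses, while the median over all tested genes was 0.0077. The gained genes were mostly almost silent in the wild type. Their median FPKM was 0.296 in the wild type, against 3.53 in *nrpe1*, 59 of the 85 had a wild-type mean under 1, as did 14.5% of all tested genes, and 14 were listed at 0 in all 3 wild-type libraries. The lost genes had a median FPKM of 3.62 in the wild type, against 1.40 in *nrpe1*. These levels belong to the values that chose the genes, since a gene must be expressed in the wild type to be counted as lower, and they are given as a description. In 74 of the 85 gained genes each *nrpe1* library exceeded each wild-type library, and 29 of the 32 lost genes showed the reverse. Over all tested genes such separation was found for 3.48% in the upward and 2.21% in the downward direction. At an adjusted p under 0.05 with a difference of any size, 184 genes (0.813%) were higher and 108 (0.477%) lower. With the adjusted p replaced by a raw P under 0.01 and the size limit kept, 147 (0.649%) were higher and 57 (0.252%) lower. Without blocking on replicate number, 57 genes were higher and 18 lower, all of them among the 85 and 32.

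**Figure D1:**
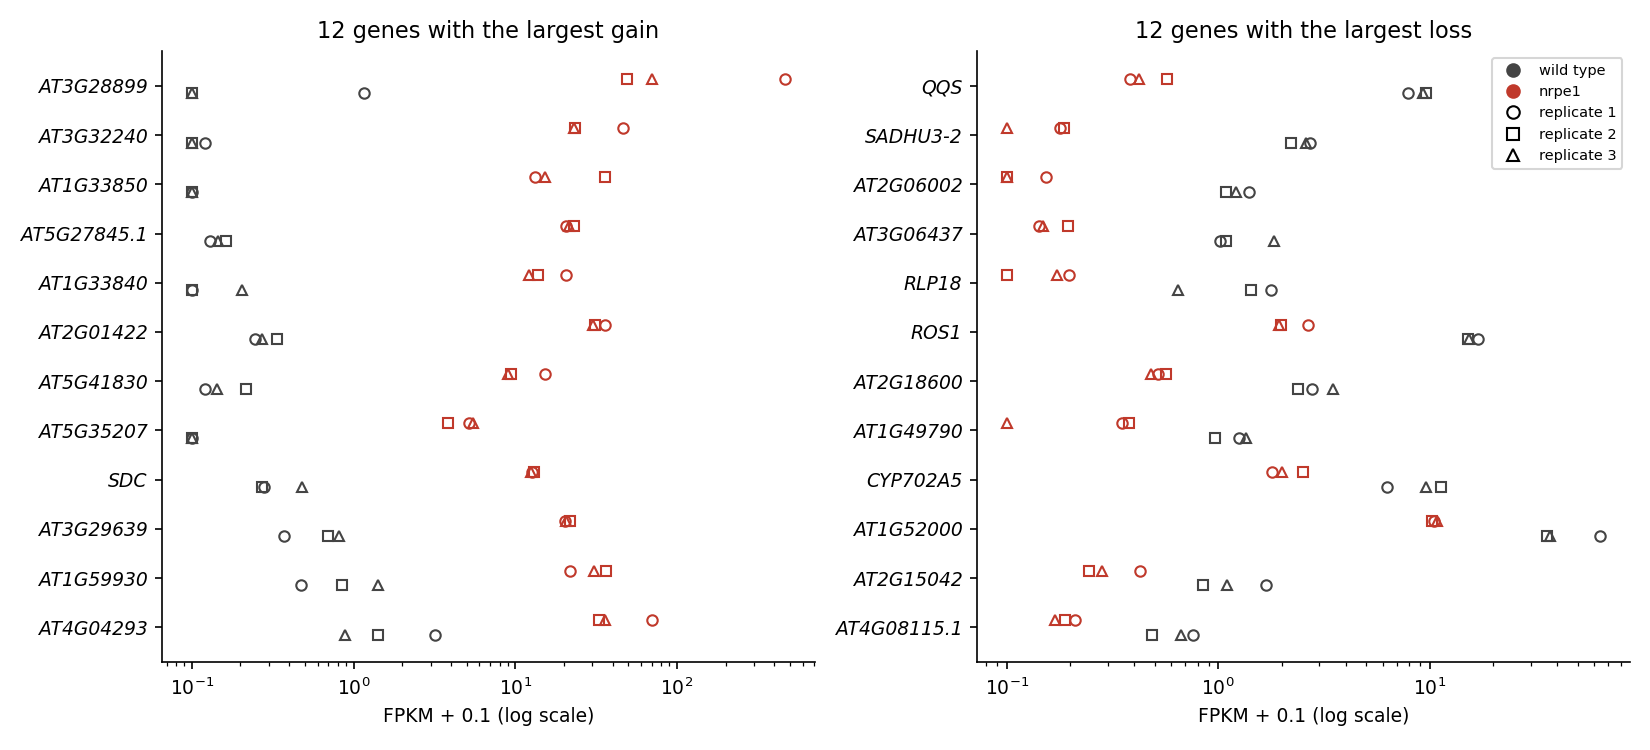
FPKM + 0.1 (log scale) in each library of the 12 genes with the largest gain (left) and the largest loss (right) among genes past the threshold whose groups did not overlap. Grey marks are the wild type, red marks *nrpe1*, and the shape gives the replicate. Most gained genes start at or near the floor of 0.1 in the wild type, and *AT3G28899* in *nrpe1* spreads from 48.8 to 468.

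The gene *SDC* (AT2G17690) encodes an F-box protein whose expression outside the seed curls leaves, and it is a long-used reporter of RdDM. Tandem repeats lie before its start, and they are shown because the locus is identified by them. In the 300 bases from 250 before to 50 after its annotated start (TAIR10.1, chr2:7681912-7682211, plus strand, RefSeq annotation), capitals mark each of the 4 copies of one stretch of 20 identical bases.
SDC: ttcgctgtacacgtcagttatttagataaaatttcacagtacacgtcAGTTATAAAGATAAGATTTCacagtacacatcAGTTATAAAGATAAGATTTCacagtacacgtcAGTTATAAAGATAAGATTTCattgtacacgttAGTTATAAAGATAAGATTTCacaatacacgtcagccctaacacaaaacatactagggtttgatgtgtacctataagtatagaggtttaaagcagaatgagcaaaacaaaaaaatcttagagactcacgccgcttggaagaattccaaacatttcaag
A stretch of 20 bases present at least 2 times without overlap, searched on the strand of the gene with repeats of units of up to 3 bases left out, was found in 1.69% of the 22535 windows of tested genes. It was found in 4 of the 85 gained and 1 of the 32 lost genes, and *SDC* was 1 of 3 tested genes with 4 copies or more. The FPKM of *SDC* was 0.181, 0.173 and 0.379 in the wild type, against 12.6, 12.9 and 12.4 in *nrpe1*, so every mutant library was at the same level and far above every wild-type library. The log2 difference was 5.26 (SE 0.311, adjusted p = 2.82e-05). *SDC* overlaps AT2G17695 on the other strand, which is tested and had a log2 difference of -0.18 with an adjusted p of 0.20. The library kit is not stated to keep strand, so reads from overlapping genes cannot be told apart.

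Of 7 loci known or named by the study as silenced through RdDM, 6 were tested, of which 4 rose and 2 fell. Several of them were chosen by the study on these samples, so their direction is not independent evidence. *AT3G28899*, an uncharacterized protein gene at chr3:10902184-10902515 (plus strand), had the largest log2 difference of all genes past the threshold. Its FPKM was 1.06, 0 and 0 in the wild type, against 468, 48.8 and 70.5 in *nrpe1*, which gives 9.02 (SE 0.646, adjusted p = 0.000106). Replicate 1 was much higher than the others in the mutant, and the groups were still far apart. The gene overlaps AT3G28900 on the other strand, which had a log2 difference of 0.01. *AT5G24240*, for a protein like phosphatidylinositol 4-kinase gamma, rose from 0.488, 0.284 and 0.394 to 12, 9.54 and 9.26, a log2 difference of 4.42 (SE 0.203, adjusted p = 4.08e-06). *AT3G33528*, of unknown function, rose from 0.172, 0.250 and 0.0903 to 3.79, 3.53 and 3.27, a log2 difference of 3.79 (SE 0.424, adjusted p = 0.00196). *FWA*, a homeobox gene and the last of the 7 loci, was under the limit for testing. It was listed at 0.0215, 0.0613 and 0.0450 in the wild type, against 0.276, 0.159 and 0.135 in *nrpe1*, where every library was higher than every wild-type library.

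The window at the start of *AT3G28899* (TAIR10.1, chr3:10901934-10902233, plus strand) is shown because this gene gained most and CG sites are targets of methylation. CG sites are in capitals, and it holds 10 of them.
AT3G28899: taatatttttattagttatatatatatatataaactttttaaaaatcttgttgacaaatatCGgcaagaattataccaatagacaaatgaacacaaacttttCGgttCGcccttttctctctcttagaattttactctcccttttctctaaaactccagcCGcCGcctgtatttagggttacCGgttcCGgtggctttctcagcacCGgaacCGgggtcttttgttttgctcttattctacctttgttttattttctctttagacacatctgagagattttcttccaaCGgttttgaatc
The median number of CG sites in such a window was 6 for gained genes, 6.5 for lost genes and 6 for all tested genes. DNA methylation was not analysed here.

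Among the other genes with the largest gains, several went from no listed value to a clear level. *AT1G33850*, of the ribosomal protein S19 family, had no listed signal in any wild-type library, against 13.2, 36.0 and 15.3 FPKM in *nrpe1*, which corresponds to about 87, 103 and 46 reads. The pseudogene *AT5G35207* was likewise at 0 in the wild type throughout, against 5.05, 3.71 and 5.36 in *nrpe1*. Both were past the threshold, with adjusted p-values of 2.14e-06 and 2.72e-06, and no fold is given against a group at 0.

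*AT3G32240*, a pseudogene on chromosome 3, was listed at 0.0212, 0 and 0 in the wild type, against 46.0, 23.2 and 22.9 in *nrpe1* (log2 difference 8.09, SE 0.33, adjusted p = 2.14e-06). The isoform *AT5G27845.1*, also annotated as a pseudogene, was at 0.0294, 0.0626 and 0.0461 in the wild type, against 20.5, 22.9 and 21.3 in *nrpe1*, a log2 difference of 7.22 (SE 0.261, adjusted p = 1.22e-06). *AT1G33840*, a relative of the defence gene *LURP1*, was at 0, 0 and 0.104 in the wild type, against 20.5, 13.8 and 12 in *nrpe1* (log2 difference 6.90, adjusted p = 3.96e-06). In all 3 genes every *nrpe1* library was far above every wild-type library.

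The noncoding RNA *AT2G01422* rose from 0.147, 0.237 and 0.171 to 36.1, 31.0 and 30.3, a log2 difference of 6.84 (SE 0.355, adjusted p = 1.09e-05). *AT5G41830*, of the RNI-like family of leucine-rich repeat proteins, rose from 0.0203, 0.116 and 0.0425 to 15.2, 9.38 and 8.91 (log2 difference 6.14, adjusted p = 4.08e-06). In both genes the libraries of a group lay close together beside the distance between the groups. The remaining genes with the largest gains were *AT3G29639* (log2 difference 5.14, adjusted p = 0.000136), the MADS-box gene *AT1G59930* (5.13, adjusted p = 0.00578) and the pseudogene *AT4G04293* (4.78, adjusted p = 2.82e-05).

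The products of gained genes were often unknown. Of the 85, 42 were annotated as uncharacterized, hypothetical, other RNA or without a product, as were 2448 of the tested genes. Of the 60 tested genes annotated as MADS-box or AGAMOUS-like transcription factors, 5 rose and none fell, where 0.375% of all tested genes rose. They were the neighbours *AT1G59930* and *AT1G59920*, *FLC*, *MAF5* and *AGL42*. The calls of *FLC*, *MAF5* and *AGL42* were lost without the replicate block, each at an adjusted p of 1, and those of *AT1G59920* and *AGL42* without replicate 2 or 3. Of 24 tested genes annotated as terpenoid cyclases, terpenoid synthases or marneral synthase, 4 rose and none fell. They were *AT3G32030*, *AT3G32040*, *AT3G29410* and *MRN1*, the marneral synthase, and the first had the largest change among them, from 0.990, 0.299 and 0.689 to 7.81, 7.80 and 7.28 (log2 difference 3.46, SE 0.241, adjusted p = 8.63e-05). Without the block the calls of *MRN1* (adjusted p = 1) and *AT3G29410* (adjusted p = 0.45) were lost. Both were also lost without replicate 2 or 3, and that of *AT3G32040* whichever replicate was left out. These product groups were chosen after the values were seen.

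Of the 85 gained genes, 8 had a wild-type mean FPKM of at least 10. *ESM1*, a GDSL lipase-like protein that steers glucosinolate breakdown towards isothiocyanates, was named after its values were seen. Its FPKM was 584, 617 and 584 in the wild type, against 1494, 1400 and 1386 in *nrpe1*, a log2 difference of 1.26 (SE 0.0402, adjusted p = 4.99e-07). The spread within a group was small beside the step between the groups. Part of the gene, 19.6% of its length, is repeated at another place with 98% identity or more over 100 bases or more. Of the 85 gained genes, 6 had such copies over at least 50% of their length, where uniquely mapped reads give uncertain values, and 15 overlapped a gene on the other strand, as did 27.0% of all tested genes.

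*ROS1* (AT2G36490) encodes the DNA glycosylase that removes methylated cytosine in vegetative tissue, and it was among the genes that fell. The window at its start (TAIR10.1, chr2:15314758-15315057, minus strand) is shown for comparison with those of the gained genes, with its 12 CG sites in capitals.
ROS1: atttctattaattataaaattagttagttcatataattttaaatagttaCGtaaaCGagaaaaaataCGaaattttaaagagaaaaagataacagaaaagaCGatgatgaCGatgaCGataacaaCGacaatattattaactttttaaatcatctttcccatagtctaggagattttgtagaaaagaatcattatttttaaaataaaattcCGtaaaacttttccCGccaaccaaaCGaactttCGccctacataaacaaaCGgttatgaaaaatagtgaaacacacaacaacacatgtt
The FPKM of *ROS1* was 16.8, 15 and 15.3 in the wild type, against 2.56, 1.88 and 1.83 in *nrpe1*. Every mutant library was far below every wild-type library, and the log2 difference was -2.86 (SE 0.0726, adjusted p = 1.23e-07). *ROS1* was the only one of 9 genes of DNA demethylation to pass the threshold, where 0.141% of all tested genes fell. The glycosylase genes *DME*, *DML2* and *DML3* had log2 differences of 0.07, 0.05 and -0.15, with adjusted p-values between 0.58 and 0.88, and *IDM3*, which encodes a chaperone-like protein of the demethylation complex, had -0.57 with an adjusted p of 0.0922.

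*QQS* (AT3G30720), a gene of starch metabolism known only in *Arabidopsis*, had the largest loss. Its window (TAIR10.1, chr3:12348797-12349096, plus strand) holds 11 CG sites, in capitals.
QQS: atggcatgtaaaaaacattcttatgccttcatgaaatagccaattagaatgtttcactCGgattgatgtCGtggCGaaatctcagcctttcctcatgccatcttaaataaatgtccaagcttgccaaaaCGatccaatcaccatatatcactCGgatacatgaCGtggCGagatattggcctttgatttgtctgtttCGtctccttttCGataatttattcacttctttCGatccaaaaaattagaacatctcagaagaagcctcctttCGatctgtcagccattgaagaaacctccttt
*QQS* fell from 7.78, 9.46 and 9.17 to 0.282, 0.473 and 0.322, a log2 difference of -4.29 (SE 0.34, adjusted p = 0.000205). Its mean FPKM was also low in *brat1*, at 0.745, and in *brat1nrpe1*, at 0.0954, against 8.81 in the wild type. A low level of *QQS* was therefore not particular to *nrpe1*. *SADHU3-2*, a retroposon copy annotated as a pseudogene, fell from 2.62, 2.12 and 2.49 to 0.0779, 0.0866 and 0 (log2 difference -4.07, SE 0.34, adjusted p = 0.000266). These are the 2 of the listed RdDM loci that went down, and in neither did the groups overlap.

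Other losses came from genes of several kinds. The noncoding RNA *AT2G06002* fell from 1.30, 0.983 and 1.12 to 0.0538, 0 and 0 (log2 difference -3.41, adjusted p = 0.00161). The pseudogene *AT3G06437* fell from 0.924, 0.991 and 1.73 to 0.0429, 0.0950 and 0.0485 (-2.98, adjusted p = 0.0196), and 76.8% of its length has a near-identical copy. It was as low in *brat1*, with a mean FPKM of 0.0478, and in *brat1nrpe1*, with 0.0632, so its loss was not particular to *nrpe1*. *AT2G18600*, for a protein of the ubiquitin-conjugating enzyme family, fell from 2.67, 2.28 and 3.39 to 0.419, 0.466 and 0.381 (log2 difference -2.45, adjusted p = 0.000344).

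The genes *RLP18* and *AT2G15042*, for receptor-like leucine-rich repeat proteins, lie next to each other and both fell, with log2 differences of -2.97 (adjusted p = 0.00502) and -1.92 (adjusted p = 0.0252). *AT1G52000*, of the mannose-binding lectin family, was the most abundant of the 12 genes with the largest losses. It fell from 63.8, 35.7 and 37.1 to 10.4, 10.1 and 10.7 (log2 difference -2.07, SE 0.169, adjusted p = 0.000234). The cytochrome P450 gene *CYP702A5* fell from 6.18, 11.2 and 9.53 to 1.70, 2.43 and 1.89 (log2 difference -2.08, adjusted p = 2.26e-05). *AT1G49790*, of the F-box associated family, had -2.32 (adjusted p = 0.0471), and the pseudogene isoform *AT4G08115.1* had -1.73 (adjusted p = 0.0357). Without the block the adjusted p was 0.061 for *RLP18*, 0.37 for *AT2G15042* and 0.14 for *AT1G49790*, so these calls were lost.

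Of 25 tested genes of Pol V and RdDM, *NRPE1* alone fell, none rose, and the median log2 difference was 0.0024. *NRPD1*, the largest subunit of Pol IV, had a log2 difference of 0.35 (adjusted p = 0.308), *AGO4* of -0.16 (adjusted p = 0.247) and *DRM2* of 0.02 (adjusted p = 0.965). None of 10 genes that maintain DNA methylation passed the threshold, among them *MET1* at -0.06, *CMT3* at 0.01 and *DDM1* at -0.07, and their median was -0.047. Over all tested genes 0.375% rose and 0.141% fell.

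Of 23 genes of salicylic acid and defence, 3 rose and none fell, with a median of 0.12, where 0.375% of all tested genes rose. *PR1*, the secreted marker protein of salicylic acid responses, went from 1.48, 1.13 and 1.55 to 32.9, 8.52 and 10.1 (log2 difference 3.27, SE 0.436, adjusted p = 0.0056). Replicate 1 was the highest in the mutant, and the groups did not overlap. *BGL2*, a beta-1,3-glucanase also known as PR2, went from 1.59, 3.18 and 3 to 3.37, 6.34 and 8.68 (log2 difference 1.17, adjusted p = 0.0158), and *PNP-A*, a plant natriuretic peptide, from 0.0840, 0.730 and 0.705 to 0.608, 1.88 and 2.56 (log2 difference 1.64, adjusted p = 0.00418). *PR1* was past the threshold without the block as well. The unblocked adjusted p of *BGL2* was 0.82 and that of *PNP-A* was 1. Between *brat1nrpe1* and *brat1* none of these genes was higher, with log2 differences of -0.27 for *PR1*, -0.19 for *BGL2* and -0.16 for *PNP-A* at adjusted p-values between 0.785 and 0.894. In *brat1* itself their mean FPKM was already above that of the wild type. The means were 7.58 against 1.39 for *PR1*, 8.99 against 2.59 for *BGL2* and 1.92 against 0.506 for *PNP-A*. Higher levels of these genes were therefore not particular to *nrpe1*. The differences did not depart between the backgrounds past the threshold, with adjusted p-values for the interaction between 0.146 and 0.215.

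The regulators of the same response stayed within the threshold, with *NPR1* at 0.02, *ICS1* at 0.12, *EDS1* at 0.14 and *WRKY70* at -0.38 on the log2 scale, at adjusted p-values between 0.278 and 0.958. Of 8 genes of the *FLC* family and floral integrators, *FLC* and *MAF5* rose and none fell, with a median of 0.11. Over all tested genes 0.375% rose and 0.141% fell. *FLC*, the MADS-box repressor of flowering, went from 1.5, 0.578 and 0.840 to 5.42, 1.41 and 1.52 (log2 difference 1.24, adjusted p = 0.0497). The groups overlapped because wild-type replicate 1 was higher than *nrpe1* replicate 2, and the difference was positive in each pair. *MAF5*, a relative of *FLC*, went from 0.950, 0.341 and 0.311 to 3.33, 1.10 and 1.27 (log2 difference 1.63, adjusted p = 0.0371). Without the block both had an adjusted p of 1. The mean FPKM of *MAF5* was 1.79 in *brat1* and 1.49 in *brat1nrpe1*, against 0.534 in the wild type. A higher mean of *MAF5* was therefore not particular to *nrpe1*.

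No gene passed the threshold among 11 heat shock, 13 cold and dehydration and 11 circadian clock genes, whose medians were -0.06, -0.015 and 0.005. None passed among the 5 leaf, 6 root, and 6 flower and seed markers. Over all tested genes 0.375% were higher and 0.141% lower, so the lack of calls in lists this short says little about them. Of the root markers, *PYK10*, a beta-glucosidase of roots, had a log2 difference of 0.31 with an adjusted p of 0.00236. The summed FPKM of the root markers was between 599 and 952 in the wild type and between 751 and 1113 in *nrpe1*. Their part in gains of genes known from roots, such as *MRN1* and *AIR1*, was not tested. In whole seedlings, fewer cells of a type and less RNA per cell cannot be told apart.

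**Figure D2:**
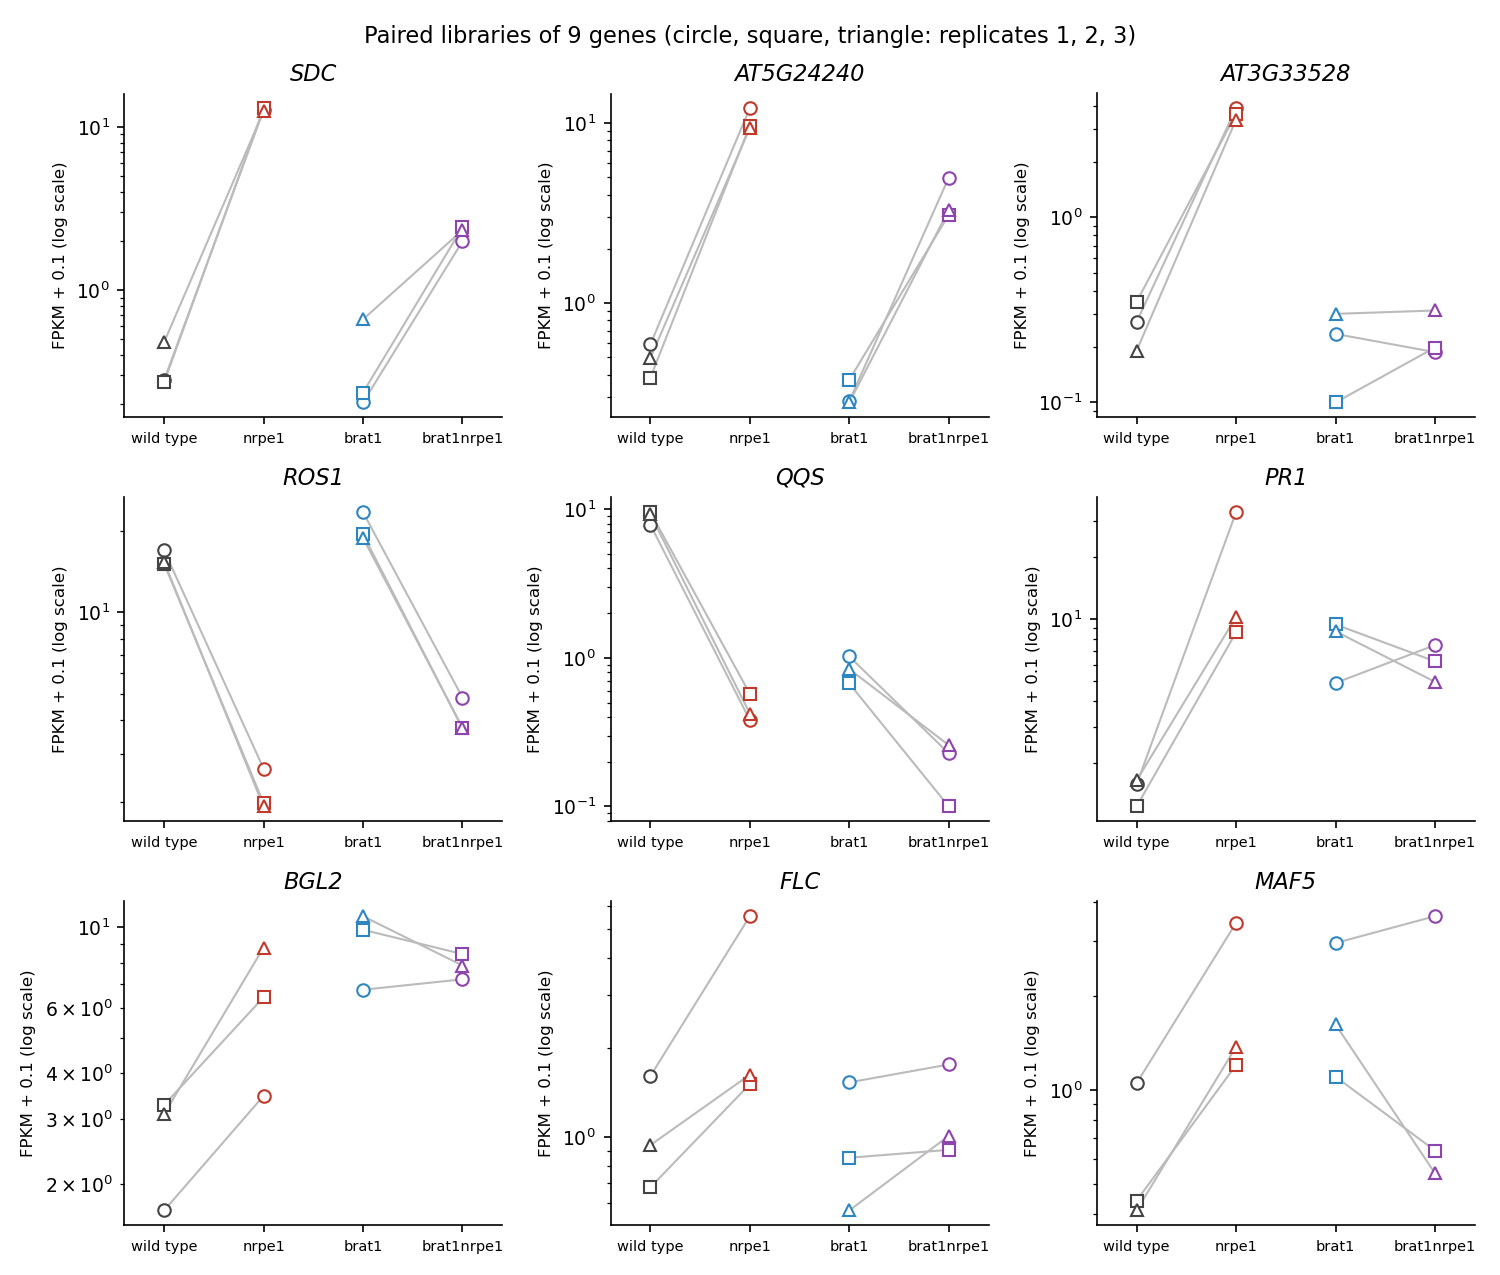
FPKM + 0.1 (log scale) of 9 genes in the 4 genotypes, with lines joining libraries of the same replicate number within a background. *SDC*, *AT5G24240* and *AT3G33528* rise and *ROS1* and *QQS* fall in every pair of *nrpe1* and the wild type, while the lines of *FLC* and *MAF5* show replicate 1 above the others in each genotype.

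Near centromeres *Arabidopsis* chromosomes are rich in transposons and silent chromatin. With pericentromeric regions set at 12 to 18 Mb on chromosome 1, 1 to 7 Mb on chromosomes 2 and 4, 11 to 17 Mb on chromosome 3 and 9 to 15 Mb on chromosome 5, 42 of the 85 gained genes (49.4%) and 12 of the 32 lost genes (37.5%) lay inside, as did 9.18% of the tested genes. Of the 2070 tested pericentromeric genes, 2.03% were gained and 0.58% lost, and of the 20479 genes of the arms 0.21% and 0.0977%. Genes were tested by their mean over all 12 libraries. A gene at 0 in the wild type was therefore tested only where mutant libraries expressed it, and silent genes that stayed silent are not counted. The part of this filter in the gained shares was not tested. Tested pericentromeric genes as a whole had a median log2 difference of 0.011, and genes of the arms one of 0.0073. With limits 1 Mb narrower on each side, 28.2% of gained, 25% of lost and 3.55% of tested genes were inside, and with limits 1 Mb wider 63.5%, 40.6% and 17.4%. Each chromosome held between 13 and 20 gained genes and between 5 and 8 lost genes. On chromosomes 1 to 5 in order, the shares of gained genes were 21.2%, 23.5%, 18.8%, 15.3% and 21.2%. Those of lost genes were 25%, 25%, 15.6%, 15.6% and 18.8%, and those of tested genes 26.3%, 15.6%, 19.8%, 15.2% and 23.1%.

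Pseudogenes, as the annotation calls many remains of transposons and broken gene copies, made up 26 of the 85 gained genes (30.6%) and 5 of the 32 lost genes (15.6%), against 2.01% of the tested genes. Of the 456 pseudogenes tested, 5.70% were gained and 1.10% lost, and 21 of the 26 gained ones were pericentromeric, as were 202 of all 456. The same filter applies to these shares, since pseudogenes silent in every genotype were not tested. Protein-coding genes, 53 of the gained and 25 of the lost, were pericentromeric in 35.8% and 32.0%, against 8.37% of tested protein-coding genes. A further 6 gained (7.06%) and 2 lost genes (6.25%) were noncoding RNAs, against 2.27% of the tested genes.

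**Figure D3:**
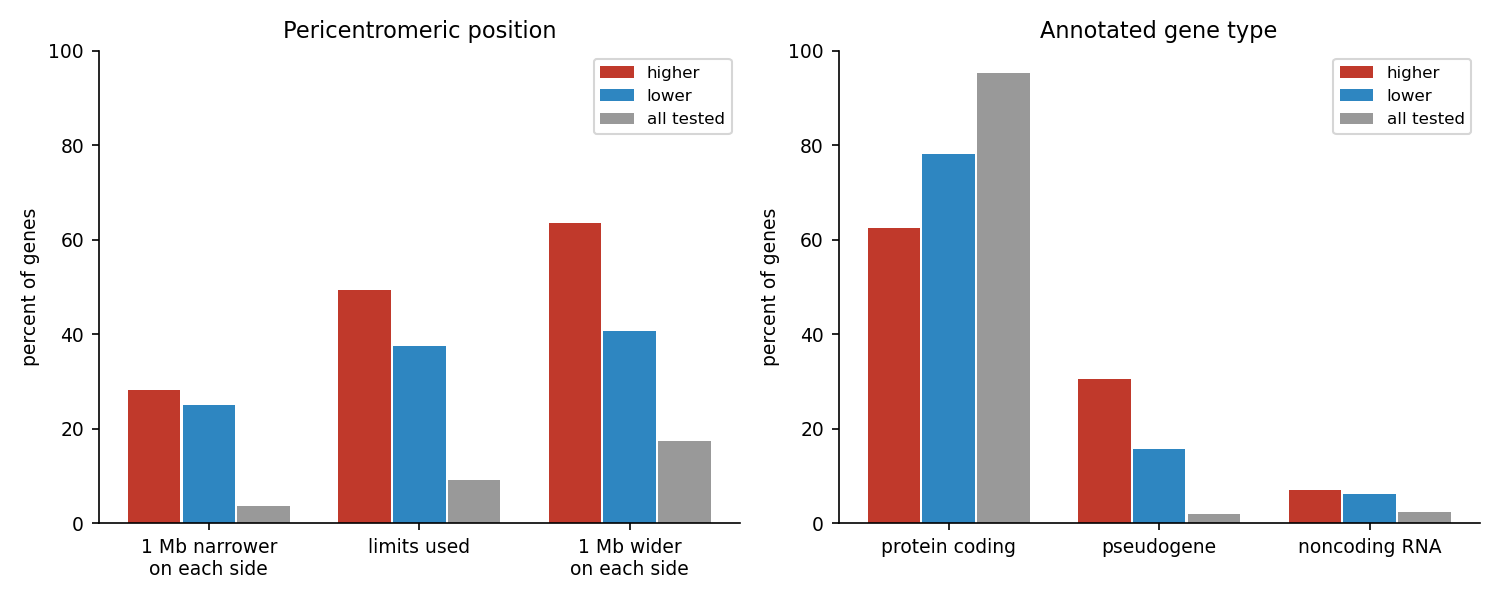
Percent of gained (higher, red), lost (lower, blue) and all tested genes (grey) that lay in pericentromeric regions under 3 sets of limits (left) and that had each annotated type (right). The share of pericentromeric genes was 49.4% for gained and 37.5% for lost genes against 9.18% of tested genes, and pseudogenes were 30.6%, 15.6% and 2.01%.

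Some changed genes were neighbours. Taking tested genes in their order along the chromosomes, 22 of the changed genes stood in 11 pairs of direct neighbours, of which 10 were of gained genes, 1 was of lost genes and none held both. Genes that were not tested can lie between the members of a pair, and *AT3G32195* and *AT3G32240* span 46646 bases. The number of such pairs to be found among equally placed genes was not tested. The pair *AT1G33840* and *AT1G33850* spans 4486 bases on the minus strand of chromosome 1, and both genes were at or near 0 in the wild type. The MADS-box pair *AT1G59920* and *AT1G59930* spans 2093 bases, and the former has near-identical copies over its whole length. On chromosome 5, *AT5G35205* and *AT5G35207* span 5579 bases and were both listed at 0 in all wild-type libraries. *AT5G35480* and *MRU1* span 2702 bases on opposite strands and were both expressed in the wild type, with FPKM of 26.2 ± 4.51 and 8.04 ± 2.15 (SD, n = 3), which rose to 87.5 ± 8.98 and 23.8 ± 2.17 (SD, n = 3) in *nrpe1*. The lost pair was *RLP18* and *AT2G15042*, over 5240 bases of chromosome 2.

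The same loss of NRPE1 can be read by comparing *brat1nrpe1* with *brat1*, whose libraries did not enter the log2 differences above. BRAT1 is a protein with a bromodomain and an ATPase domain. Its difference shares no library with that of *nrpe1* and the wild type. The filter and the spread behind the calls came from all 12 libraries, however, so the calls of the 2 comparisons are not independent. It had 47 higher genes (0.208% of those tested) and 17 lower genes (0.0751%). Of the 85 gained genes 78 had a positive difference in it and 35 were past the threshold in the same direction, and of the 32 lost genes 30 had a negative difference and 13 were past the threshold. None was past the threshold in the opposite direction. The median log2 difference was 1.32 for the gained and -1.03 for the lost genes, and 79 of 85 and 27 of 32 were smaller in size than against the wild type. The genes were picked for large differences in the first comparison, and the part of that choice in the smaller differences was not tested. *ROS1* went from 23.3, 19.3 and 18.7 in *brat1* to 4.76, 3.64 and 3.66 in *brat1nrpe1* (log2 difference -2.32, SE 0.0726, adjusted p = 6.26e-07), and *ESM1* from 472, 442 and 428 to 1505, 1366 and 1405 (1.67, SE 0.0402, adjusted p = 1.05e-07).

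**Figure D4:**
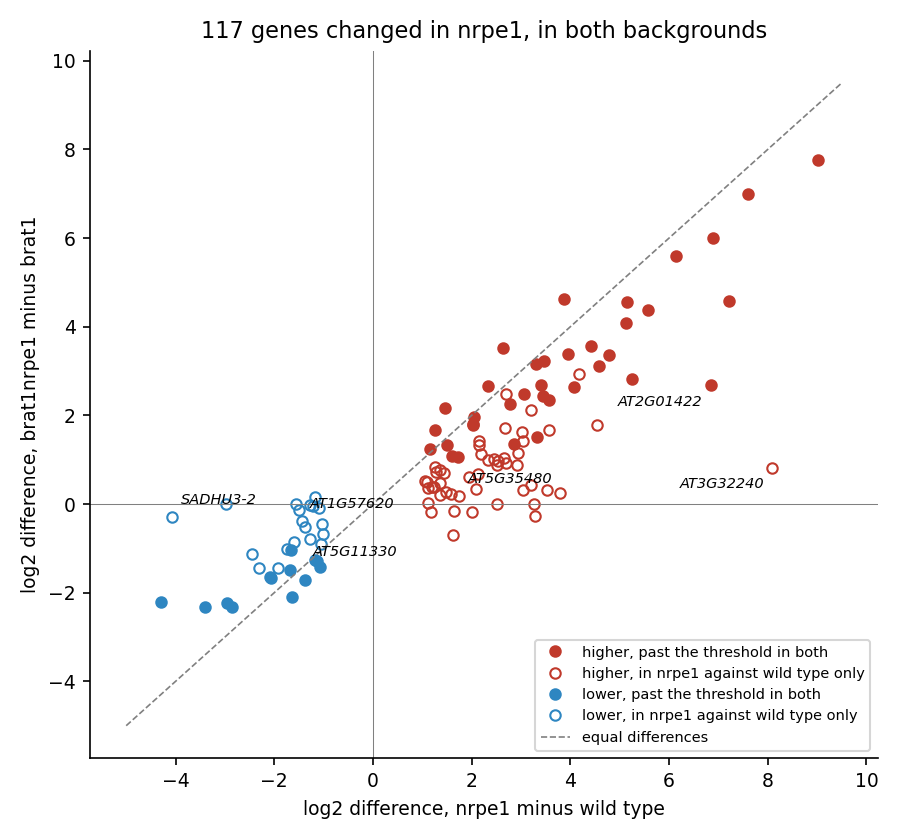
Log2 difference of *brat1nrpe1* minus *brat1* against that of *nrpe1* minus the wild type for the 85 gained (red) and 32 lost (blue) genes, filled where both were past the threshold. Most points lie between 0 and the dashed line of equal differences, and the names mark the 6 genes whose differences departed between backgrounds at an adjusted p under 0.05.

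For 6 of the 117 genes the difference itself depended on the background, with an adjusted p under 0.05 for the interaction, as did 12 of all tested genes (0.053%). *AT3G32240*, so strongly gained in *nrpe1*, was at 0.0221, 0 and 0 in *brat1* and at 0.279, 0 and 0.0781 in *brat1nrpe1*, which is near the wild-type level (interaction -7.27 on the log2 scale, adjusted p = 0.000501). *AT2G01422* reached 3.62, 5.58 and 4.57 in *brat1nrpe1*, under its level in *nrpe1* (interaction -4.17, adjusted p = 0.0267). *AT5G35480* was at 14.1, 21.3 and 17.56 in *brat1* and 16.4, 25 and 19.1 in *brat1nrpe1* (interaction -1.56, adjusted p = 0.0215).

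Among the lost genes, *SADHU3-2* was already at 0.0728, 0.0788 and 0 in *brat1* and at 0.0706, 0 and 0 in *brat1nrpe1*, close to the floor of the scale in both (interaction 3.78, adjusted p = 0.0354). *AT5G11330*, for an FAD/NAD(P)-binding oxidoreductase, fell from 29.0, 35.9 and 35.6 to 10.7, 13.9 and 13.7 in *nrpe1*, but from 28.2, 36.0 and 36.2 to 19.8, 25.1 and 24.8 in the *brat1* background (interaction 0.86, adjusted p = 0.000501). *AT1G57620*, for a p24 family protein of vesicle transport, fell from 20.9, 21.5 and 21.0 to 8.04, 7.10 and 8.01 in *nrpe1*, and was at 18.3, 15.7 and 15.5 in *brat1nrpe1* against 22, 21.5 and 20.5 in *brat1* (interaction 1.07, adjusted p = 0.00355). *AT5G35480*, *AT5G11330* and *AT1G57620* were named after their values were seen.

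**Figure D5:**
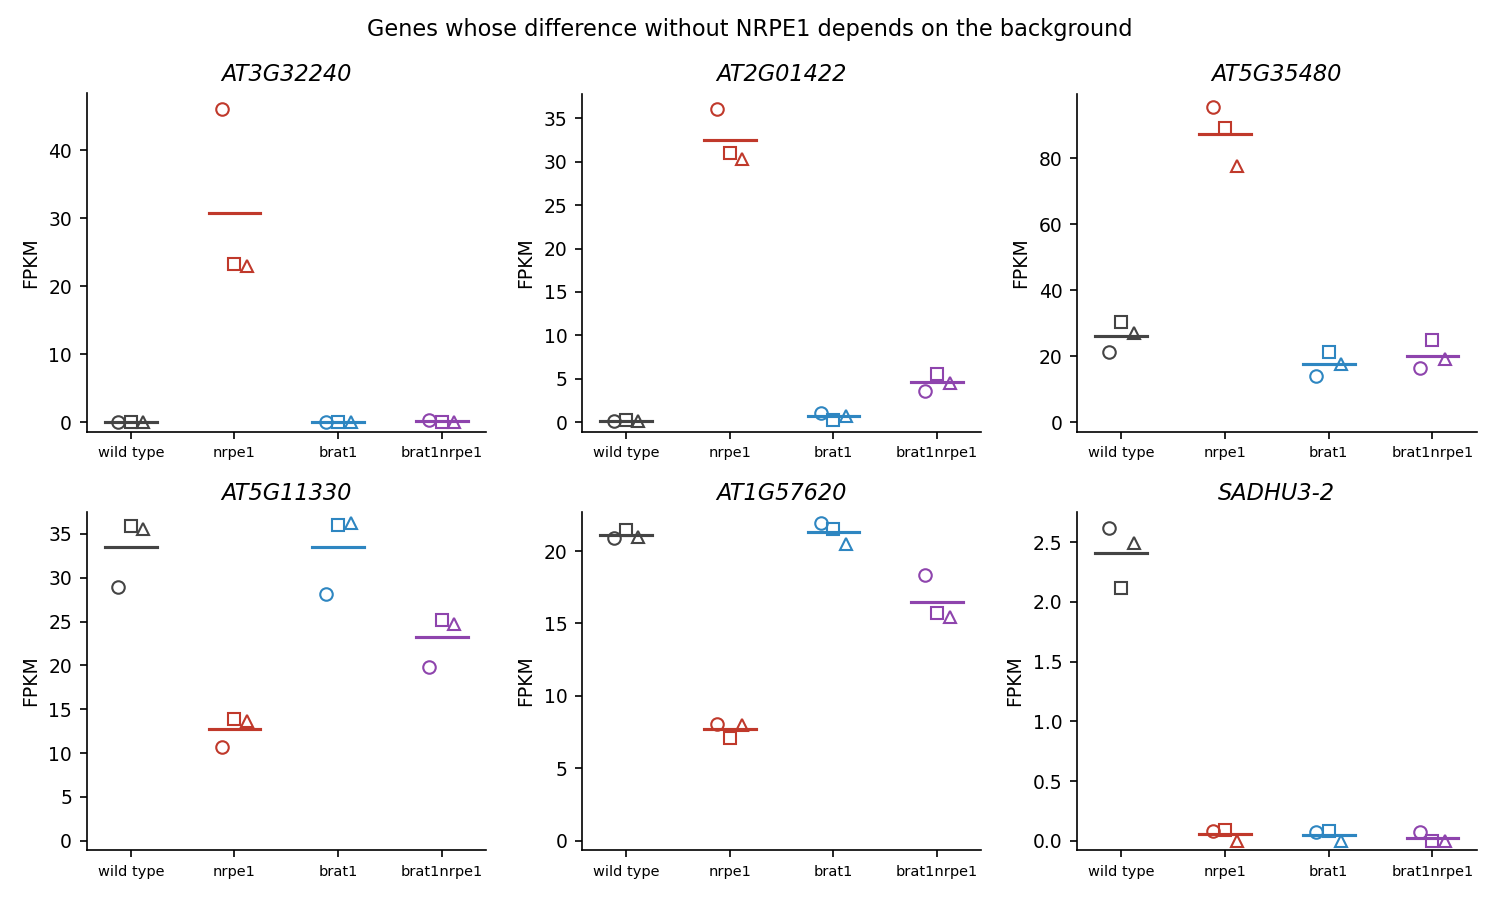
FPKM of the 6 genes with an interaction, in each library of the 4 genotypes (points, shape by replicate) with the mean of each group (line). *AT3G32240* is high in *nrpe1* alone, *SADHU3-2* is high in the wild type alone, and *AT5G11330* and *AT1G57620* fall in both backgrounds by different amounts.

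Leaving out any 1 replicate changed the sign of none of the 117 genes. The number of calls did not stay, with 123 higher and 50 lower genes without replicate 1, 32 and 15 without replicate 2, and 25 and 11 without replicate 3, and 22 of the 85 and 9 of the 32 stayed past the threshold in all cases. The calls of *PNP-A*, *MAF5*, *FLC*, *AT2G15042*, *AT1G49790* and *AT3G06437* were lost whichever replicate was left out. That of *AT1G59930* and of *AT3G33528* was lost without replicate 1 or 3, that of *PR1*, *BGL2* and *AT4G08115.1* without replicate 2 or 3, that of *RLP18* without replicate 1 or 2, and that of *AT2G18600* and *AT2G06002* without replicate 3.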

How the data were processed

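Poly-A RNA of whole seedlings was sequenced by the authors, who mapped reads to TAIR10 with Tophat, kept uniquely mapped reads and deposited FPKM from Cufflinks. The submitters' processing notes name TopHat2 2.0.12, Bowtie, Cufflinks 2.0.1 and Cuffdiff, and the study's methods give an earlier Tophat version. Genotypes and replicate numbers come from the sample labels. FPKM carries no counts, so no count model and no counting interval was used, and reads per gene are approximations from the lowest FPKM steps and TAIR10.1 exon lengths.

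Values were transformed to log2(FPKM + 0.1), and the 22645 rows with a mean of at least 0.1 were fitted with limma 3.58.1 (R 4.3.3, moderation with a trend, two-sided tests) with 4 genotype means and the replicate number as a block, over all 12 libraries, which leaves 6 residual degrees of freedom. Deviations from the group means of same-numbered libraries of the wild type and *nrpe1* correlated at 0.804, 0.617 and 0.604, and the numbers were used to pair libraries. Over all genotypes the lowest correlation of same-numbered libraries was 0.593 and the highest of differently numbered ones 0.619, so the numbers set replicate 1 apart but do not separate replicates 2 and 3. Replicates 2 and 3 also correlated across numbers, at 0.571 and 0.579, and replicate 1 with the others between -0.701 and -0.686. Replicates 2 and 3 of a genotype differed by 1.14 and 1.09 times the counting noise over genes with about 300 to 5000 reads, and were kept as separate samples, with their mean as 1 sample among the alternatives. Reports of genes follow a rule: *NRPE1*, *ROS1*, the listed RdDM loci, the 12 genes with the largest log2 difference in each direction among genes past the threshold whose groups did not overlap, and members of gene lists past the threshold. Other genes are said to be named after their values were seen, or are neighbours, product groups or list members given for reference. The genes, lists and regions were chosen with earlier results of these data known, and lists are given by counts and medians, with no set test.

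Positions, gene types, products and windows are those of TAIR10.1 from RefSeq, whose locus tags matched 33389 of 34133 listed rows. Copies were searched with BLAST 2.17.0. Python 3.11.15 with pandas 2.3.3 and numpy 2.4.6 was used for other steps. The fit was tested on simulated data. Transposons and DNA methylation were not analysed here. As alternatives the fit was repeated with a pseudocount of 1 or 0.01, no filter, a mean FPKM of at least 1, no block, the 6 libraries alone, no trend, rescaling, an unadjusted P under 0.01, each replicate left out, the mean of replicates 2 and 3, and other region limits.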

Additional observations from a re-analysis of the deposited data

Results flagged for a closer look

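For 6 of the 117 genes that changed in *nrpe1*, the difference without NRPE1 departed between the wild-type and the *brat1* background by the interaction term of the fit, and over all tested genes 12 did. Given as the difference in the *brat1* background minus that in the wild-type background, on the log2 scale, the value was -7.27 for *AT3G32240*, -4.17 for *AT2G01422*, -1.56 for *AT5G35480*, 3.78 for *SADHU3-2*, 1.07 for *AT1G57620* and 0.86 for *AT5G11330*. Each gain and each fall was smaller in size in the *brat1* background.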

How the results depend on the processing

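All 117 genes kept their sign under every alternative in which they were tested. With no block, the 6 libraries alone, no trend, another filter or an unadjusted P, the log2 differences are unchanged by construction. In those fits the sign could not change, and the genes had been chosen for differences larger than 1 in size. Against 85 higher and 32 lower genes, a pseudocount of 1 gave 50 and 16, a mean FPKM of at least 1 gave 50 higher, an unadjusted P under 0.01 gave 147 and 57, the mean of replicates 2 and 3 as 1 sample gave 32 and 20, and the 6 libraries of the wild type and *nrpe1* alone gave 16 and 5. In that last fit, which has fewer samples to estimate the spread, *NRPE1* had the same difference of -1.65 with an adjusted p of 0.071. Without the replicate block 18 genes were lower and 57 higher. Leaving out each replicate in turn gave between 25 and 123 higher and between 11 and 50 lower genes, where fewer libraries estimate the spread. Of the gained genes, 35 were past the threshold in *brat1nrpe1* against *brat1*, and this became 18 without the block and 13 with the mean of replicates 2 and 3, and between 9 and 29 with a replicate left out. Of the lost genes, 13 were, and this became 7 with a pseudocount of 1, 6 without the block, 8 without a trend, 5 with the mean of replicates 2 and 3, and between 3 and 7 with a replicate left out. The pericentromeric share of gained genes was 28.2% with narrower and 63.5% with wider limits. The cause of these moves was not tested. Approximate reads summed over the 3 *nrpe1* libraries were under 30 for 4 of the 85 gained genes, whose values depth limits most.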
